A study of Mus musculus with 16 samples.

Results

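The genes described here are the ligands Cxcl9, Cxcl10 and Cxcl11 and their shared receptor Cxcr3, chosen by symbol from the count table. They are 4 of its 46078 genes, and all 4 passed the filter on low counts that left 16101 genes for testing. The samples were tumours of B16F10-GP cells, a line derived from the pigmented B16F10 mouse melanoma, grown in Matrigel at the flanks of C57BL/6 females aged 6 to 8 weeks. RNA was measured in 16 libraries, 4 in each of 4 groups. The untreated group is so labelled, while the protocol speaks of vehicle. The 5 Gy group had X-rays at 5 Gy to the right flank on day 10. The QH-II-066 group (QHII in the labels) was injected intraperitoneally with that compound, known by its code name, at 10 mg/kg a day for 7 days from day 10, and mice of the combined group received the X-rays one morning and the first injection the same evening. All mice bore the same implanted line, and radiation was given to the right flank only. The labels give neither the flank sampled nor whether each library came from its own mouse, so the p-values reflect only how these samples spread, part of which may be technical.

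CXCL9, CXCL10 and CXCL11 are small secreted chemokines that interferon gamma induces. Type I interferons and NF-kB also induce CXCL10 in particular. Dendritic cells, macrophages, endothelial cells and tumour cells can make them. The receptor CXCR3, a G protein-coupled receptor carried by activated and Th1-type T cells, cytotoxic T cells and NK cells, draws these cells along the gradient. In tumours the ligands are known for recruiting effector T cells, and those T cells secrete more interferon gamma.

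No difference in any of the 4 genes between any of the groups passed the test. What varied was the individual tumour library: within a group Cxcl10 differed up to 3.7-fold between libraries and the sparsely counted Cxcl11 up to 4.69-fold, and over all 16 libraries the ligands were positively correlated with Ifng and with a T cell score, 5 of these 6 relations passing the test. Ifng is part of that score, and 3 of the 5 did not pass without the 2 libraries farthest from the median. Cxcr3 had no such positive relation.

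Total counts ran from 6994198 to 40799942 fragments, and 3 counts, taken here as the limit that a count of 0 allows, came to 0.0796 to 0.447 CPM (counts scaled to library size) depending on the library. The melanocyte markers that define the line were abundant, with Pmel at 3720 to 6170 CPM and Mlana at 684 to 2490 CPM, and the 8 markers summed to 16000 to 26900 CPM. In 5 libraries (5 Gy replicates 2 and 4, combined replicates 2, 3 and 4) keratin and other skin transcripts stood apart, where the skin list averaged 4.06 log2 CPM or more against -0.72 or less in the other 11. Libraries also differed in their gene length slope, the regression of each library's departure from the mean log2 CPM on the log2 length of its genes, from -0.248 in combined replicate 1 to 0.228 in untreated replicate 3. These values are given again beside the results they move with.

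In the mm10 build the 3 ligand genes lie side by side on the minus strand of chromosome 5. Cxcl9 (ENSMUSG00000029417) spans 92321347 to 92328079, Cxcl10 (ENSMUSG00000034855) spans 92346638 to 92348889 and Cxcl11 (ENSMUSG00000060183) spans 92359544 to 92365485. Cxcr3 (ENSMUSG00000050232) is on the minus strand of chromosome X at 101731535 to 101734269. Cxcl10 and Cxcl11 lie within the span of Art3, a gene of the ADP-ribosyltransferase family on the plus strand, and 133 of 2252 exonic bases of Cxcl10 are shared with Art3. Cxcl11 shares 1582 of its 3794 exonic bases with Gm2673, a processed pseudogene on the plus strand that had 2 counts over the 16 libraries. The counting used no strand, so fragments in shared bases cannot be assigned to either gene. RefSeq, whose mouse assembly is from C57BL/6J, lists Cxcl11 as a transcribed pseudogene with 0 proteins, and GENCODE lists it as a polymorphic pseudogene.

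The promoters are shown because the ligands are described by their inducers. Whether the motifs relate to the levels of these genes was not tested. RefSeq's table for GRCm38.p6 held 3 of the 4 genes. The 250 bases before each start were searched on both strands for an interferon-stimulated response element (ISRE, read as GAAA, NN and GAAA in a row), an interferon gamma activated site (GAS, TTCNNNGAA) and the NF-kB consensus. Each run reads 5′ to 3′ on the minus strand, ending at the base before the start, with motif matches in capitals. The RefSeq start of Cxcr3 lies inside the span the count table gives, so its window overlaps that span.
Cxcl9, chr5:92328080-92328329: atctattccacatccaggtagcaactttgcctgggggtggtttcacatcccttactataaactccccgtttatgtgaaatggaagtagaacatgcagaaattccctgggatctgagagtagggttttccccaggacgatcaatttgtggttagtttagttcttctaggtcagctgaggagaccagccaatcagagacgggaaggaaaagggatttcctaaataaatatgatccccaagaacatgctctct
Cxcl10, chr5:92348890-92349139: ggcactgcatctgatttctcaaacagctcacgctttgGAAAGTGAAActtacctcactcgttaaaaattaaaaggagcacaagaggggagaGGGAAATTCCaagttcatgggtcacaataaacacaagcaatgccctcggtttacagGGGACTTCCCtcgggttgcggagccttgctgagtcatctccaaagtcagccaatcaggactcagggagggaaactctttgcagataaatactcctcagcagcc
Cxcr3, chrX:101734148-101734397: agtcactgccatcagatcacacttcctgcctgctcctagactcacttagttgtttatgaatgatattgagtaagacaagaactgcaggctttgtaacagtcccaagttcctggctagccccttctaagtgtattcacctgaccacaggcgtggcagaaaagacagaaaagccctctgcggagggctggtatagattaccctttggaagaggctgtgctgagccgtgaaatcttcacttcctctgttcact
Cxcl10 held 1 ISRE match, GAAAGTGAAA, 213 to 204 bases before the start. It also held 2 NF-kB matches, GGGAAATTCC at 159 to 150 bases and GGGACTTCCC at 103 to 94 bases before the start. Of 32851 promoter windows of this length in the table, 2.98% held the ISRE pattern, 7.02% the GAS pattern and 3.9% the NF-kB consensus. The Cxcl9 and Cxcr3 windows held no match to these exact patterns. Sites spelled otherwise, within these windows or elsewhere, were not searched for, so no absence of such sites follows.

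Per kilobase of exon, Cxcl10 and Cxcl9 were among the more abundant transcripts and Cxcl11 among the least. Over the 16 libraries Cxcl10 had 82.9 ± 27 RPKM (CPM divided by exonic length in kilobases; SD, n = 16), above 95.1% of tested genes. Cxcl9 had 43.6 ± 12.8 RPKM, above 90.9%, and Cxcr3 had 2.95 ± 0.637 RPKM, above 42.7%. Cxcl11 had 0.27 ± 0.122 RPKM, above 11.5%, or 0.464 ± 0.209 RPKM over the bases it does not share with Gm2673. Each Cxcl11 value rests on 9 to 64 fragments and each Cxcr3 value on 37 to 231, against 664 to 6137 for Cxcl9 and 1071 to 11265 for Cxcl10. Because the RNA was enriched with capture probes, levels compared between genes also depend on probe coverage, which was not tested. In bulk tumour RNA, fewer cells of a type and less RNA per cell cannot be told apart.

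Cxcl9 stood at 122, 157, 90.2 and 148 CPM in untreated replicates 1 to 4 and at 201, 192, 94.9 and 110 CPM in the 5 Gy replicates. It stood at 92.9, 110, 196 and 154 CPM after QH-II-066 and at 111, 97, 130 and 98.8 CPM in the combined group. The highest libraries were 5 Gy replicates 1 and 2 and QH-II-066 replicate 3, yet each of those groups also had libraries under 111 CPM, so the ranges of all groups overlapped. The means ran from 150 ± 54.9 CPM after 5 Gy through 138 ± 46.4 after QH-II-066 and 129 ± 29.9 untreated to 109 ± 15.3 CPM under both treatments (SD, n = 4 each), and the ranges of neighbours in that order overlapped.

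Cxcl10 stood at 128, 171, 89.9 and 333 CPM in the untreated libraries and at 168, 218, 180 and 154 CPM after 5 Gy. It stood at 163, 179, 216 and 208 CPM after QH-II-066 and at 305, 144, 172 and 159 CPM in the combined group. The lowest and the highest of the 16 libraries were both untreated, and only combined replicate 1 came near the highest. Group means were 195 ± 74 CPM under both treatments, 191 ± 24.8 after QH-II-066, 180 ± 27.8 after 5 Gy and 180 ± 107 untreated (SD, n = 4 each), closer together than the libraries of any one group.

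Cxcl11 stood at 0.969, 0.577, 0.48 and 2.25 CPM in the untreated libraries and at 1.07, 1.03, 0.911 and 0.373 CPM after 5 Gy. It stood at 0.725, 0.902, 1.37 and 1.22 CPM after QH-II-066 and at 1.51, 0.627, 1.04 and 1.34 CPM in the combined group. Untreated replicate 4 and combined replicate 1 were the 2 highest, as for Cxcl10. Means were 1.13 ± 0.388 CPM under both treatments, 1.07 ± 0.816 untreated, 1.06 ± 0.296 after QH-II-066 and 0.847 ± 0.323 after 5 Gy (SD, n = 4 each), all within the spread of each group.

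Cxcr3, the receptor, stood at 7.72, 3.23, 6.52 and 4.08 CPM in the untreated libraries and at 5.09, 5.02, 4.83 and 5.77 CPM after 5 Gy. It stood at 4.88, 3.67, 5.42 and 5.73 CPM after QH-II-066 and at 4, 4.78, 5.58 and 5.51 CPM in the combined group. For Cxcr3 too, the untreated group held both the highest and the lowest library and the others lay inside it. Means were 5.39 ± 2.09 CPM untreated, 5.17 ± 0.409 after 5 Gy, 4.97 ± 0.738 in the combined group and 4.93 ± 0.906 after QH-II-066 (SD, n = 4 each), and no neighbours in that order differed beyond their spread.

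In each of the 5 comparisons between groups, the ranges of all 4 genes overlapped. The share of all tested genes whose ranges did not overlap was 9.11% for 5 Gy against untreated, 2.92% for QH-II-066 against untreated and 4.22% for the combined group against untreated. It was 8.42% for the combined group against 5 Gy and 1.91% against QH-II-066.

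**Figure D1:**
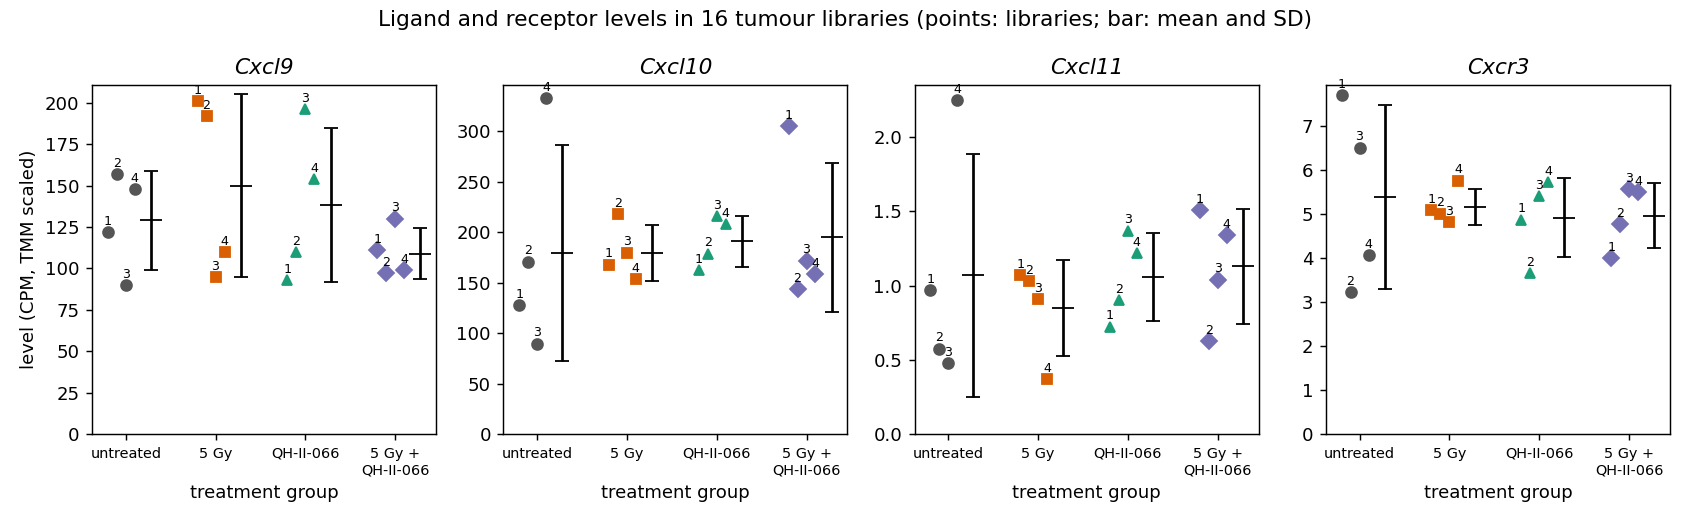
Level of each gene (CPM, TMM scaled, vertical axis from 0) by treatment group, with 1 numbered point per library and the mean and SD of 4 libraries beside them. For each gene the 4 groups overlap, and untreated replicate 4 is the highest library for Cxcl10 and Cxcl11.

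The spread within groups was 0.42 for Cxcl9, 0.49 for Cxcl10, 0.65 for Cxcl11 and 0.34 for Cxcr3 (SD of log2 CPM with group means removed), where the median of all tested genes was 0.35. Differences between groups made up 13.2% of the variance of Cxcl9, 4.86% of Cxcl10, 7.67% of Cxcl11 and 1.32% of Cxcr3. The median over all tested genes was 29.8%, so these 4 varied less between groups, as a share of their variance, than the median gene.

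What radiation alone did to the ligands and receptor was asked by setting the 5 Gy group against untreated tumours. None of the 4 genes was called, beside a background of 1.26% of 16101 genes (202 higher and 1 lower), by edgeR. The log2 fold change was 0.21 ± 0.27 for Cxcl9 (SE; edgeR adjusted p = 0.745) and 0 ± 0.32 for Cxcl10 (adjusted p = 0.997). As folds, the 95% intervals ran from 0.778 to 1.72 for Cxcl9 and from 0.621 to 1.6 for Cxcl10. Cxcl11 had a log2 fold change of -0.33 ± 0.49 with an interval of 0.385 to 1.63-fold, and Cxcr3 one of -0.06 ± 0.25 with an interval of 0.66 to 1.4-fold (edgeR adjusted p = 0.781 and 0.931). The 203 calls over all genes depend on single libraries: with 1 library left out, 0 to 731 genes were called higher. The count was 0 without 5 Gy replicate 2 or without untreated replicate 1, 2 or 3, 731 without 5 Gy replicate 3, and 22 without the libraries with skin transcripts.

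QH-II-066 alone was compared with untreated tumours to ask what the drug did. Cxcl9 had a log2 fold change of 0.09 ± 0.27, Cxcl10 of 0.08 ± 0.32, Cxcl11 of -0.02 ± 0.49 and Cxcr3 of -0.13 ± 0.25 (SE; edgeR adjusted p = 0.886, 0.916, 0.993 and 0.82). The 95% intervals as folds were 0.718 to 1.59, 0.661 to 1.7, 0.481 to 2.02 and 0.628 to 1.33. The background was 0% of all genes by edgeR, with 1316 genes at an unadjusted p under 0.05. DESeq2 called 13 genes higher and 3 lower in this comparison and limma-voom with sample weights 1887 higher and 2760 lower, with none of the 4 genes among either. The smallest adjusted p for a ligand was 0.104, for Cxcl10 by limma-voom (0.44 ± 0.20).

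The combined treatment was set against untreated tumours and against each treatment alone. Against untreated tumours Cxcl9 had a log2 fold change of -0.24 ± 0.27, Cxcl10 of 0.11 ± 0.32, Cxcl11 of 0.07 ± 0.49 and Cxcr3 of -0.12 ± 0.26 (SE; edgeR adjusted p = 0.611, 0.858, 0.943 and 0.802). The corresponding 95% intervals were 0.568 to 1.26-fold, 0.673 to 1.73-fold, 0.507 to 2.18-fold and 0.631 to 1.34-fold. Against 5 Gy, Cxcl9 had the lowest value of the ligand tests between groups, -0.45 ± 0.27, or 0.73-fold with an interval of 0.491 to 1.09 (unadjusted p = 0.113, edgeR adjusted p = 0.329). It lay between -0.62 and -0.28 when each library was left out in turn. The other 3 genes had 0.12 ± 0.32 (Cxcl10), 0.41 ± 0.5 (Cxcl11) and -0.06 ± 0.26 (Cxcr3), with edgeR adjusted p of 0.838, 0.626 and 0.894. Against QH-II-066 the log2 fold changes were -0.34 ± 0.27 for Cxcl9, 0.03 ± 0.32 for Cxcl10, 0.09 ± 0.49 for Cxcl11 and 0.01 ± 0.26 for Cxcr3, all with an edgeR adjusted p of 1. The background was 0% in each of these 3 comparisons by edgeR, with 2615, 3136 and 588 genes at an unadjusted p under 0.05. DESeq2 called 187 genes higher and 13 lower against untreated, 76 and 47 against 5 Gy, and 47 and 1 against QH-II-066. Limma-voom called 15 higher and 54 lower against 5 Gy, and neither tool called any of the 4 genes.

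The interaction asks whether the drug's effect differed in irradiated tumours. It was -0.55 ± 0.38 for Cxcl9, with a 95% interval of -1.36 to 0.26 on the log2 scale, and 0.03 ± 0.45 for Cxcl10, with an interval of -0.93 to 1 (SE; edgeR adjusted p = 0.877 and 1). Cxcl11 had 0.43 ± 0.7 and Cxcr3 0.07 ± 0.36 (edgeR adjusted p = 0.985 and 1). The test of any difference among the 4 groups gave edgeR adjusted p of 0.576 for Cxcl9, 0.982 for Cxcl10, 0.892 for Cxcl11 and 0.963 for Cxcr3. Both tests had a background of 0% by edgeR, with 1121 genes for the interaction and 2861 for the 4 groups at an unadjusted p under 0.05. For the interaction DESeq2 called 3 genes higher and 56 lower and limma-voom 57 and 440, and for the 4 groups they called 1002 and 4818 genes, with none of the 4 genes in any of these. Of 4 genes in 7 tests, 0 values passed. The tests share groups: untreated libraries enter 3 comparisons between groups, the interaction and the test among the 4 groups.

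**Figure D2:**
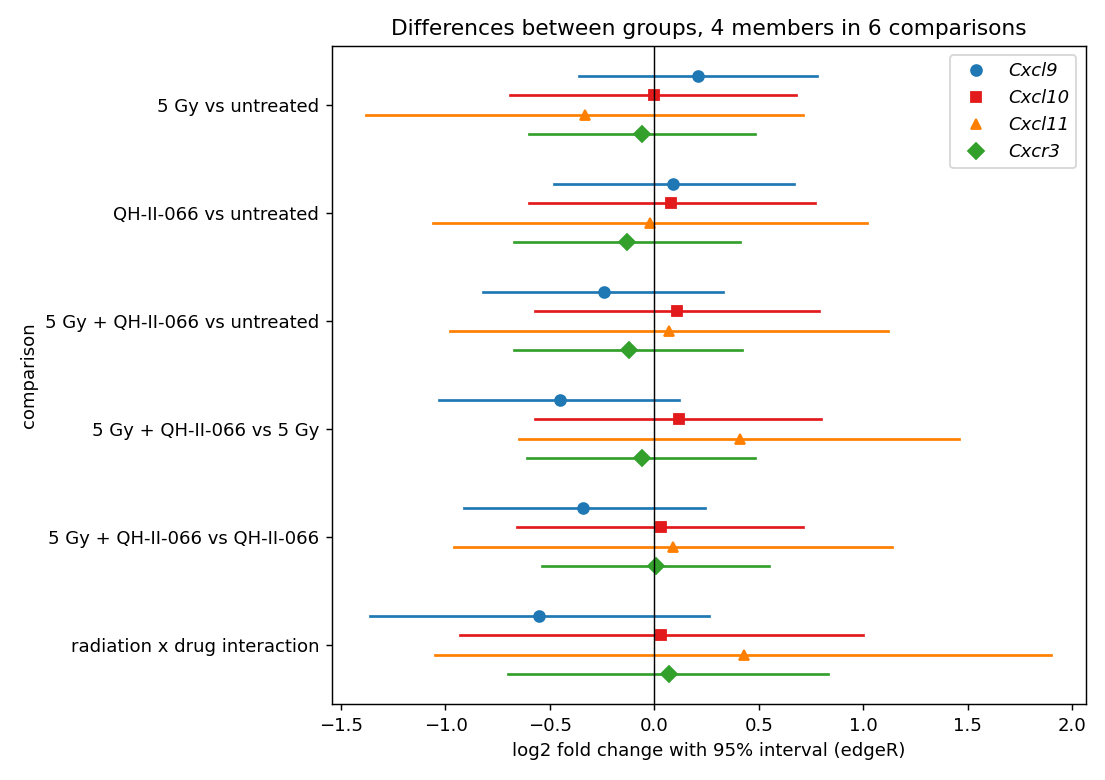
Log2 fold change of each gene in 5 comparisons and the interaction (horizontal axis), with 95% intervals from edgeR. Every interval spans 0, and those of Cxcl11, which has the fewest counts, are the widest.

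The inducers of the ligands did not pass the test either. Of the Interferon gamma axis list (the cytokine, its receptor, its signal relay and target genes), 0 of 28 tested genes were called by edgeR in each comparison, with 3 at an unadjusted p under 0.05 after 5 Gy, 0 after QH-II-066 and 7 when the combined group was set against 5 Gy. Its median log2 fold change was 0.13 after 5 Gy, where the median of all tested genes was -0.08, and 0.16 after QH-II-066, where that of all genes was 0.01. In the combined group the median was -0.1 against untreated, with all genes at 0. Over all 16101 genes, 2438 had an unadjusted p under 0.05 after 5 Gy and 1316 after QH-II-066. In the combined group against 5 Gy there were 3136. Ifng, which encodes interferon gamma, stood at 1.7 ± 1.14 CPM untreated, 2.71 ± 1.29 after 5 Gy, 2.11 ± 0.821 after QH-II-066 and 2.64 ± 1.38 under both treatments (SD, n = 4 each). Irf1, a transcription factor that interferon gamma induces, stood at 264 ± 117, 274 ± 70.3, 309 ± 27.2 and 267 ± 67.2 CPM in the same order. As for Cxcl10, the untreated libraries were the most spread for Irf1. After 5 Gy the smallest p-values of the list were those of Ifngr1, a chain of the interferon gamma receptor (log2 fold change 0.44 ± 0.15, adjusted p = 0.14), Nos2, the inducible nitric oxide synthase (0.85 ± 0.37), and Irf8, a factor of myeloid cells (0.66 ± 0.3). With limma-voom and sample weights, 10 of the 28 genes were called after QH-II-066, with a list median of 0.3, beside the 1887 and 2760 calls over all genes, and DESeq2 called 0.

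Of the Type I interferon axis list, 18 of 20 genes were tested and 0 were called by edgeR in any comparison, with a median of 0.03 after 5 Gy and 0.08 after QH-II-066. Ifnb1, the gene of interferon beta, was under the filter. The smallest p-values after 5 Gy were those of Irf3 (-0.22 ± 0.14), Irf7 (0.49 ± 0.38) and Stat2 (0.27 ± 0.24), transcription factors of this pathway, with an adjusted p of 0.535 or more. Of 12 TNF and NF-kB inducers edgeR called 0, with a median of 0.39 after 5 Gy. At an unadjusted p under 0.05 there were 2, beside 2438 of 16101 genes. The list's smallest p-values were those of the adhesion molecules Icam1 (0.79 ± 0.31) and Vcam1 (0.57 ± 0.23) and of Tnfaip3, an inhibitor of NF-kB signalling (0.38 ± 0.18). With limma-voom after QH-II-066, 4 of 18 genes of the Type I interferon axis and 4 of 12 of the TNF and NF-kB inducers were called. Over all 16101 genes limma-voom called 1887 higher and 2760 lower there.

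Genes that act on the ligands or downstream of the receptor were read in the same way. Of 12 tested CXCR3 modulators edgeR called 0 after 5 Gy, with a median log2 fold change of 0.71 and values from -0.03 to 2.48. DESeq2 called 4 of them, beside 1180 genes higher and 44 lower over the table. At an unadjusted p under 0.05 in edgeR there were 6, beside 2438 of 16101 genes. Ackr1, a decoy receptor that binds chemokines on vessels and red cells, had 2.48 ± 0.59 (adjusted p = 0.0502) from a low level of 0.344 ± 0.236 CPM untreated. Ackr3, a scavenging receptor that binds CXCL11 and CXCL12, stood at 4.28 ± 1.12 CPM untreated and 9.82 ± 2.85 after 5 Gy (1.2 ± 0.31, adjusted p = 0.0604). Pf4, a platelet chemokine also named CXCL4, stood at 6.23 ± 2.63 and 23 ± 8.61 CPM (1.89 ± 0.56, adjusted p = 0.0902). Dpp4, the peptidase that trims the ligands into weaker agonists, stood at 1.25 ± 0.459 CPM untreated and 5.37 ± 3.84 after 5 Gy (2.09 ± 0.64, adjusted p = 0.0989), and at 2.03 ± 1.6 after QH-II-066 and 2.35 ± 1.64 CPM under both treatments. In the interaction, edgeR called 0 of the 12, with a median of -0.77 where that of all genes was 0.03. Among 12 tested CXC chemokines and receptors of other axes, 1 was called after 5 Gy: Cxcl12, a chemokine of stromal cells, stood at 12.8 ± 5.62 CPM untreated and rose by 2.03 ± 0.34 on the log2 scale to 52.2 ± 4.95 CPM (edgeR adjusted p = 0.0227). Over all tested genes edgeR called 1.26% after 5 Gy. Without the libraries with skin transcripts Cxcl12 was no longer called, and edgeR also called fewer genes over all tested genes.

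Markers of the cells that make the ligands or bear the receptor were counted beside them. After 5 Gy edgeR called 3 of 16 Macrophage and monocyte genes higher (Cd163 by 3.61 ± 0.58, Mrc1 by 2.05 ± 0.33 and Lyz2 by 1.29 ± 0.27), with a median of 1.11, and 1 of 12 Dendritic cell genes (Ccr7, 1.67 ± 0.38). It also called 7 of 9 Fibroblast genes, beside 1.26% of all 16101 tested genes. Without the libraries with skin transcripts edgeR called fewer genes of each of these lists, and also fewer over all tested genes. The macrophage list summed to 1410 to 2760 CPM after 5 Gy, 525 to 1620 untreated, 1050 to 1680 after QH-II-066 and 923 to 2230 under both treatments. Of 17 Th1 and T cell genes 0 were called, with a median of 0.49 after 5 Gy, and 0 of 10 CD8 and cytotoxic genes and 0 of 8 NK cell genes were called in any comparison by edgeR. At an unadjusted p under 0.05 after 5 Gy there were 2, 0 and 0 of these, beside 2438 of 16101 tested genes. Limma-voom called 2 Th1 and T cell genes, 3 CD8 and cytotoxic genes and 3 NK cell genes after QH-II-066. Over all 16101 genes limma-voom called 1887 higher and 2760 lower in this comparison. Cd3e, part of the T cell receptor complex, stood at 2.99, 3.64, 3.1 and 2.92 CPM on average (untreated, 5 Gy, QH-II-066, combined) and Cd8a, which marks cytotoxic T cells, at 6.78, 8.82, 8 and 6.48 CPM. The part of these cell markers in the levels of the ligands and receptor was not tested between groups. The lists' values in the combined group, against untreated, were 0.64 for the macrophage median and 0.02 for the T cell median.

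Across the 16 libraries, 14 relations were tested: the 6 pairs of the 4 genes, and each gene with Ifng and with a T cell score, the mean log2 CPM of the 17 Th1 and T cell genes, of which Ifng is 1. P-values are two-sided from 100000 permutations, adjusted over the 14. Cxcl10 and Cxcl11 were higher in the same libraries, with r = 0.76 (permutation p = 0.00097, adjusted p = 0.00679) and rho = 0.69 (permutation p = 0.00405, adjusted p = 0.0189). With group means removed r was 0.77, and without the libraries with skin transcripts it was 0.86. Without untreated replicates 3 and 4, the libraries farthest from the median of Cxcl10, it was 0.57 (adjusted p = 0.0904), so the call rests on those 2 libraries. Cxcl9 and Cxcl10 had r = 0.43 (permutation p = 0.101, adjusted p = 0.157) and rho = 0.5 (permutation p = 0.0517, adjusted p = 0.0817), and Cxcl9 and Cxcl11 had r = 0.39 (permutation p = 0.131, adjusted p = 0.183) and rho = 0.48 (permutation p = 0.0617, adjusted p = 0.0864). Neither passed.

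Each ligand was higher where Ifng was higher. For Cxcl10 r was 0.75 (permutation p = 0.00072, adjusted p = 0.00679) with rho = 0.61 (permutation p = 0.0138, adjusted p = 0.0323). For Cxcl11 r was 0.64 (permutation p = 0.00749, adjusted p = 0.021) with rho = 0.62 (permutation p = 0.0119, adjusted p = 0.0323). For Cxcl9 r was 0.58 (permutation p = 0.0185, adjusted p = 0.0431) with rho = 0.53 (permutation p = 0.0406, adjusted p = 0.0813). Without the 2 farthest libraries r was 0.62 for Cxcl10 (adjusted p = 0.0651) and 0.49 for Cxcl9 (adjusted p = 0.127), so those calls rest on them, and 0.72 for Cxcl11 (adjusted p = 0.0272). Removing group means left r at 0.77, 0.73 and 0.68 for Cxcl10, Cxcl11 and Cxcl9.

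With the T cell score, Cxcl9 had the highest r of the 4 genes, 0.72 (permutation p = 0.00164, adjusted p = 0.00765) with rho = 0.74 (permutation p = 0.00141, adjusted p = 0.0155), and the same r without the 2 farthest libraries (adjusted p = 0.0272). Cxcl10 had r = 0.67 (permutation p = 0.00428, adjusted p = 0.015) with rho = 0.72 (permutation p = 0.00222, adjusted p = 0.0155), and 0.61 without its 2 farthest (adjusted p = 0.0678), on which the call rests. Cxcl11 had r = 0.49 (permutation p = 0.051, adjusted p = 0.0893) with rho = 0.61 (permutation p = 0.0128, adjusted p = 0.0323), so its rank relation passed and the linear one did not. The differences between these correlations were not tested.

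The receptor had a negative r in each of its 5 relations, none past the threshold. The values were -0.54 with Cxcl10 (permutation p = 0.0334, adjusted p = 0.0668; rho = -0.5, permutation p = 0.0525, adjusted p = 0.0817) and -0.11 with Cxcl9 (permutation p = 0.699, adjusted p = 0.699; rho = -0.05, permutation p = 0.858, adjusted p = 0.858). With Cxcl11 r was -0.14 (permutation p = 0.593, adjusted p = 0.639; rho = -0.1, permutation p = 0.723, adjusted p = 0.778). With Ifng r was -0.37 (permutation p = 0.158, adjusted p = 0.201; rho = -0.29, permutation p = 0.284, adjusted p = 0.362) and with the T cell score -0.32 (permutation p = 0.23, adjusted p = 0.268; rho = -0.25, permutation p = 0.351, adjusted p = 0.409). The 2 libraries with the highest Cxcr3, untreated replicates 1 and 3 at 7.72 and 6.52 CPM, had the 2 lowest T cell scores of the 16, at 0.99 and 1.05, a pair singled out after the values were seen. With Cd3e and Cd8a the r of Cxcr3 was -0.28 and -0.27, given as a description over 16 libraries.

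**Figure D3:**
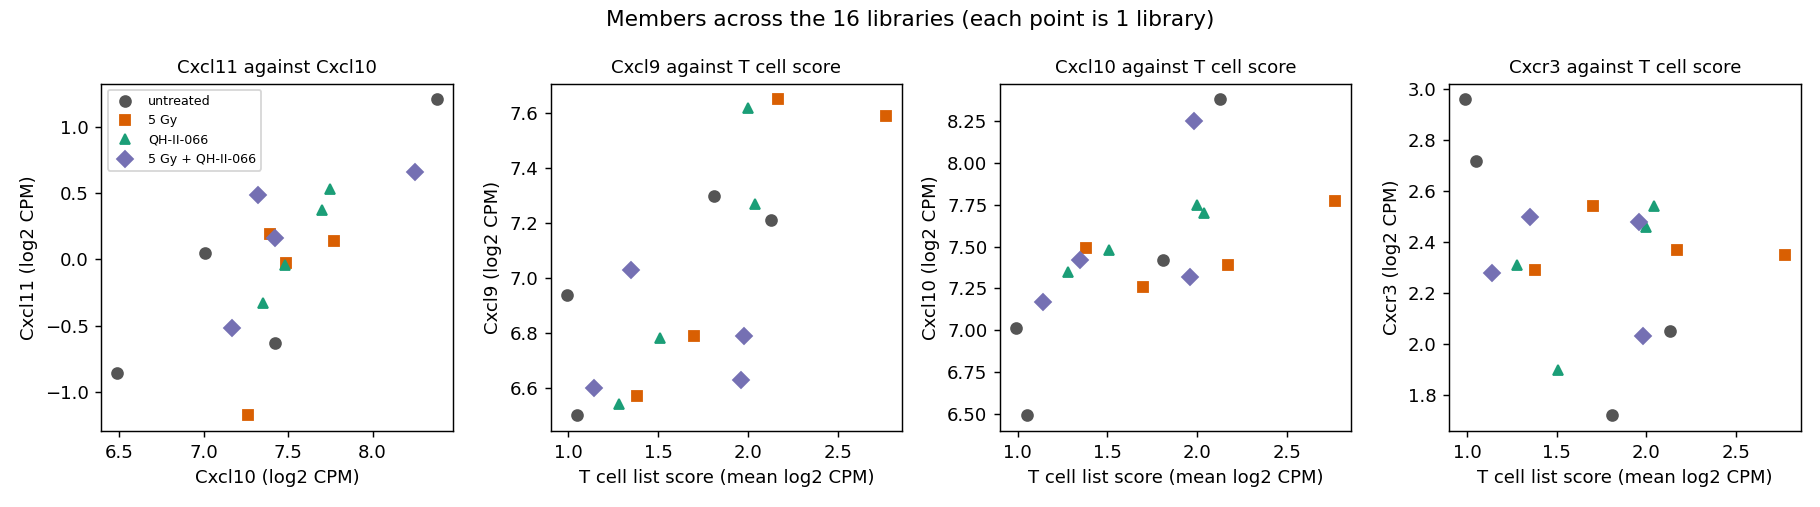
Scatter plots over the 16 libraries (log2 CPM on both axes, or the T cell score, a mean log2 CPM, on the horizontal axis), with 1 point per library and the group by colour and shape. Cxcl11 is higher where Cxcl10 is (r = 0.76), Cxcl9 and Cxcl10 are higher where the T cell score is (r = 0.72 and 0.67), and Cxcr3 is not (r = -0.32).

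The same pattern was seen gene by gene over the fixed lists, as a description with no test. Over the 28 Interferon gamma axis genes the median r was 0.6 with Cxcl9, 0.64 with Cxcl10 and 0.58 with Cxcl11, where the medians over all tested genes were 0.04, 0 and -0.04. Each ligand was positively correlated with 26 of the 28, while Cxcr3 had a median of -0.3 and a positive r with 6. Over the 17 Th1 and T cell genes the medians were 0.58, 0.59 and 0.47 for the ligands, and -0.28 for Cxcr3, which had a positive r with 2. Over the 10 CD8 and cytotoxic genes they were 0.55, 0.63 and 0.52, and -0.37 for Cxcr3, which had a positive r with 0. Positive medians were not particular to these lists. For Cxcl9, Cxcl10 and Cxcl11 they were 0.37, 0.62 and 0.41 over NK cell genes and 0.33, 0.5 and 0.33 over Macrophage and monocyte genes. They were 0.16, 0.51 and 0.57 over B and plasma cell genes and 0.28, 0.37 and 0.3 over Fibroblast genes. Melanocyte genes had negative medians (-0.29, -0.24 and -0.18). The medians of skin genes were -0.06, -0.07 and -0.16, beside 0.04, 0 and -0.04 over all tested genes. The listed genes share libraries and depth with the members, so they are not independent points.

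**Figure D4:**
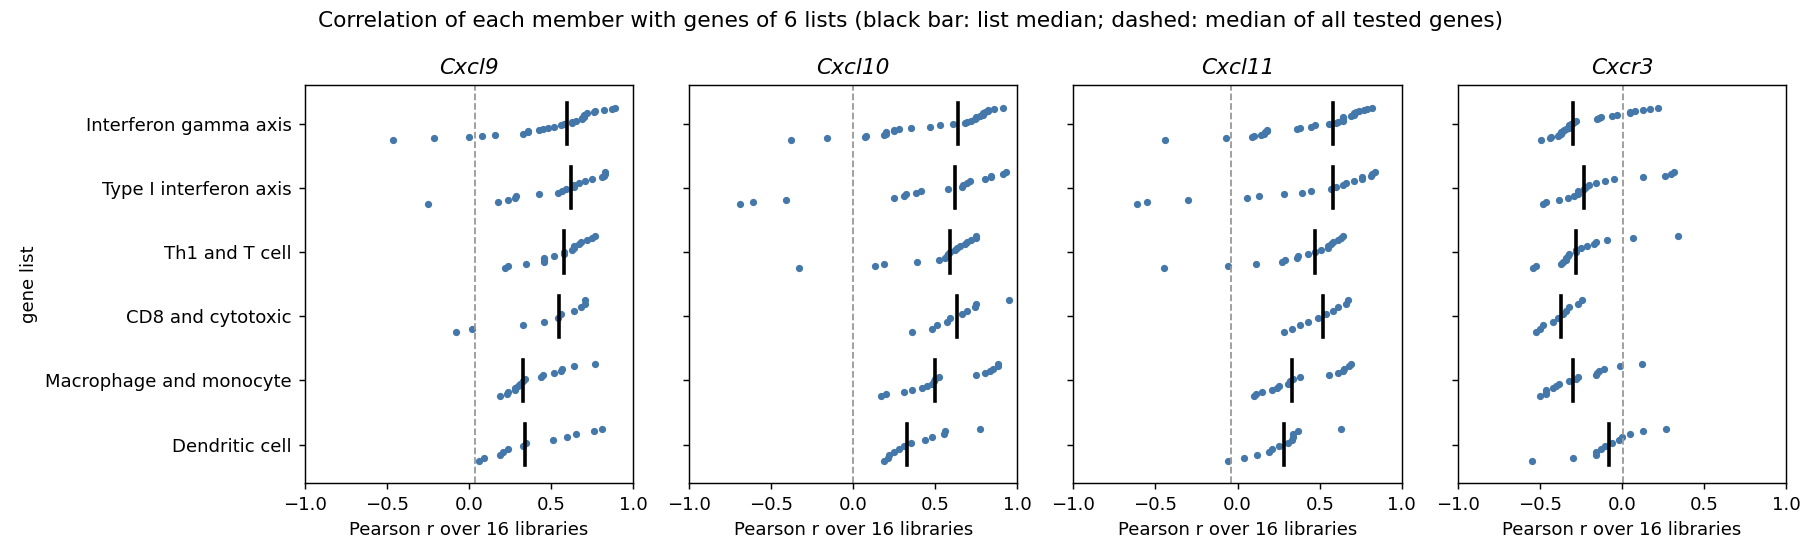
Pearson r over 16 libraries (horizontal axis) of each of the 4 genes with the genes of 6 lists, with 1 point per listed gene, a black bar at the list median and a dashed line at the median of all tested genes. The bars of the interferon and T cell lists lie at 0.47 or higher for the ligands and at -0.23 or lower for Cxcr3.

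The genes whose pattern over the libraries was most like each of the 4 were listed as a description. Among 11880 genes averaging 1 log2 CPM or more, the 5 with the highest r to each gene were taken. Those given here for Cxcl9 are Cd274 (0.89), which encodes PD-L1, Parp14 (0.88), Ifih1 (0.88), the RNA sensor MDA5, and Gbp5 (0.87), a guanylate-binding protein. Those for Cxcl10 were Ccl5 (0.95), a chemokine of T cells and macrophages, Ifitm3 (0.94) and Isg15 (0.93), both interferon-stimulated, Efhd2 (0.93) and Ccl4 (0.92), another chemokine. Those for Cxcl11 were Trmt12 (0.88), Nub1 (0.87), Oas1g (0.86), Parp10 (0.86) and Xaf1 (0.85). For Cxcr3 the values were lower, and those given here are Smarca2 (0.76), Gpr37 (0.72), Ripor2 (0.7) and Zfp839 (0.69), none of them a T cell marker on the fixed lists. The genes named here differed in exonic length, with 660 to 2381 bases for Cxcl10 and 3622 to 9306 for Cxcl9. They had 2340 to 4689 bases for Cxcl11 and 3725 to 11662 for Cxcr3, where the median tested gene had 3527. The part of length in these lists was not tested.

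The gene length slope moved with the ligands in opposite directions, and whether it is technical was not tested. The r with the gene length slope was 0.4 for Cxcl9 and 0.34 for Cxcr3, against -0.54 for Cxcl10 and -0.48 for Cxcl11 (16 libraries, a description). The slope averaged 0.068 ± 0.175 untreated and 0.109 ± 0.112 after 5 Gy (SD, n = 4 each). It averaged -0.088 ± 0.158 after QH-II-066 and -0.088 ± 0.12 under both treatments. The drug comparisons therefore also set libraries of lower slope against libraries of higher slope. Cxcl9 minus Cxcl10 was lowest in combined replicate 1 (-1.46 on the log2 CPM scale, slope -0.248) and untreated replicate 4 (-1.17, slope -0.178). It was highest in 5 Gy replicate 1 (0.26, slope 0.205). By group that difference was -0.34 ± 0.56 untreated, -0.33 ± 0.5 after 5 Gy, -0.52 ± 0.3 after QH-II-066 and -0.78 ± 0.47 under both treatments (SD, n = 4 each). Per length Cxcl9 was below Cxcl10 in all 16 libraries, at 0.272 to 0.896 of its RPKM.

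The slope was also removed by regression from both values, a setting chosen after the data were seen. Cxcl9 then moved more closely with the other 2 ligands, while Cxcl10 with Cxcl11 did not. Cxcl9 with Cxcl10 had r = 0.83 (permutation adjusted p = 0.00112), from 0.43 with the slope left in. Cxcl9 with Cxcl11 had 0.73 (permutation adjusted p = 0.00383), from 0.39, and Cxcl10 with Cxcl11 had 0.67 (permutation adjusted p = 0.0094), from 0.76. The relations with Ifng were then 0.74, 0.77 and 0.63 for Cxcl9, Cxcl10 and Cxcl11, and those with the T cell score 0.77, 0.81 and 0.58. Those of Cxcr3 remained uncalled, at -0.33 with Ifng and -0.35 with the T cell score. Depth moved little with the 4 genes: the r with the log2 total count lay between -0.1 and 0.18. The macrophage score had r of 0.44, 0.61, 0.43 and -0.28 with Cxcl9, Cxcl10, Cxcl11 and Cxcr3, and its part in the relations was not tested.

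Genes next to the ligand cluster were read for comparison. Art3, whose span encloses Cxcl10 and Cxcl11, stood at 9.09, 13.2, 12 and 10.2 CPM on average (untreated, 5 Gy, QH-II-066, combined), and had r = 0.2 with Cxcl10. The r with Cxcl10 was 0.62 for Scarb2, a lysosomal membrane protein, 0.55 for Naaa, a lysosomal acid amidase, 0.02 for Nup54, a nuclear pore protein, -0.27 for Ccng2, a cyclin, and -0.57 for Sdad1. These values over 16 libraries are descriptions. After 5 Gy edgeR called 0 of the 6 tested neighbours, beside 1.26% of all 16101 tested genes.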

How the data were processed

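RNA from 16 tumours' libraries was prepared by transcriptome capture, per the labels' protocols. The submitters' processing notes name STAR 2.4.1a, featureCounts, edgeR and mm10. The counter was featureCounts 1.6.0, run on read pairs and exons without a strand option, per the file headers. The deposited values are whole-number counts per gene, with no normalization.

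Groups were read from sample titles. The genes, lists and rules were chosen with earlier results of these data known. After filterByExpr and TMM scaling, the 16 libraries were fitted together by group in edgeR 4.0.16 under R 4.3.3, and contrasts were tested by its two-sided robust quasi-likelihood test, adjusted by Benjamini-Hochberg over 16101 genes at a threshold of 0.05. Log2 CPM used a prior count of 2. The code was tested on simulated data.

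Named genes were the 4 genes, those of each list past the threshold or the 3 with the smallest p, 8 fixed genes, and the 5 most correlated with each of the 4. Alternatives were DESeq2 1.42.0, limma-voom with sample weights (limma 3.58.1), RLE scaling, no filter, a stricter filter (minimum count 50), only the compared groups, the gene length slope as covariate, a replicate block and libraries left out. The lists also held regulatory T, B and plasma, neutrophil, endothelial, skin and muscle markers. Of their listed genes 1 symbol was not matched in the table and 14 fell under the filter. Some genes that the rule names are not reported here. Intervals and limits cover counting or replicate error only.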

Additional observations from a re-analysis of the deposited data

How the results depend on the processing

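No alternative called any of the 4 genes in any of the 7 tests, over 685 values. Of these, 61 had the other direction, all of them uncalled. The test among the 4 groups has no direction, and neither has the value of 0 for Cxcl10 after 5 Gy. With the test among the 4 groups left aside, the smallest adjusted p over these alternatives was 0.104, for Cxcl10 after QH-II-066 by limma-voom. Cxcl11 was not tested under the stricter filter. The cause of the turned directions was not tested.

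Without a filter the log2 fold change was -0.02 for Cxcr3 in the combined group against QH-II-066, and the interaction was -0.05 for Cxcl10 and -0.01 for Cxcr3. With the gene length slope as a covariate, QH-II-066 against untreated gave -0.06 for Cxcl10 and 0.01 for Cxcr3. Combined against untreated then gave -0.13, -0.14 and 0.02 for Cxcl10, Cxcl11 and Cxcr3, and against 5 Gy -0.33, -0.05 and 0.1. Combined against QH-II-066 gave -0.07 for Cxcl10 and -0.02 for Cxcl11, and the interaction -0.26 for Cxcl10. Without the libraries with skin transcripts Cxcr3 had -0.3 against QH-II-066 and -0.18 in the interaction. By limma-voom, Cxcr3 had 0.05 after 5 Gy and Cxcl11 0.52 after QH-II-066, combined against QH-II-066 gave -0.21 for Cxcl10 and -0.19 for Cxcl11, and the interaction was -0.44 for Cxcl10.

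Leaving out each library in turn turned some directions. Cxcl10 after 5 Gy, at 0 with all libraries and so without a direction to turn, then ran from -0.23 to 0.47. The ranges of those that turned were -0.58 to 0.32 (Cxcl11) and -0.24 to 0.16 (Cxcr3) after 5 Gy. After QH-II-066 they were -0.12 to 0.24 (Cxcl9), -0.14 to 0.56 (Cxcl10), -0.26 to 0.64 (Cxcl11) and -0.31 to 0.09 (Cxcr3). For the combined group against untreated they were -0.19 to 0.58 (Cxcl10), -0.16 to 0.73 (Cxcl11) and -0.31 to 0.1 (Cxcr3), and against 5 Gy -0.19 to 0.24 (Cxcl10) and -0.14 to 0.03 (Cxcr3). Against QH-II-066 they were -0.28 to 0.14 (Cxcl10), -0.11 to 0.29 (Cxcl11) and -0.11 to 0.1 (Cxcr3). For the interaction they were -0.44 to 0.26 (Cxcl10), -0.23 to 0.67 (Cxcl11) and -0.16 to 0.25 (Cxcr3).

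Whether the replicate numbers pair the samples is not settled by the values. Over 24 same-numbered pairs the correlation of deviations ran from -0.426 to 0.484, and 12 were over 0.1. Of 16 libraries, 4 correlated best with their own number. With the replicate block, Cxcl11 after QH-II-066 was 0.1 and the interaction of Cxcl10 was -0.05, and 154 genes were called higher and 0 lower after 5 Gy.

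Without the 2 farthest libraries the relations of Cxcl10 with Cxcl11 (0.57), Cxcl9 with Ifng (0.49), Cxcl10 with Ifng (0.62) and Cxcl10 with the T cell score (0.61) lost their calls, and Cxcl11 with Cxcr3 was 0.1. With the slope removed, Cxcl9 with Cxcl10 (0.83), Cxcl9 with Cxcl11 (0.73) and Cxcl11 with the T cell score (0.58) gained one, and Cxcl11 with Cxcr3 was 0.02. 

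Genes called after 5 Gy were 202 higher and 1 lower with edgeR, 1180 and 44 with DESeq2, 703 and 99 with limma-voom, 249 and 10 with the slope as a covariate, 22 and 0 when the skin-transcript libraries were left out, and 0 to 731 and 0 to 8 with a library left out. No gene was called lower without a filter or with only the compared groups in the fit. Any difference among the 4 groups was called by edgeR for 0 genes, for 3 without a filter, for 2 with the replicate block and for 0 to 26 with a library left out.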

Other observations

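The Dendritic cell list had nearly the same median r with Cxcl9 (0.34) and Cxcl10 (0.33) over the 16 libraries, with a positive r for 12 of 12 genes in both, while single genes of it differed. Xcr1, a chemokine receptor of conventional type 1 dendritic cells, had r = 0.81 with Cxcl9, 0.31 with Cxcl10, 0.37 with Cxcl11 and 0.05 with Cxcr3. Clec9a, a receptor of these cells for dead cells, had r = 0.76 with Cxcl9, 0.35 with Cxcl10, 0.19 with Cxcl11 and -0.13 with Cxcr3. Batf3, a transcription factor these cells need, ran the other way, with r = 0.09 for Cxcl9 and 0.77 for Cxcl10. The gene length slope had r = 0.4 with Cxcl9 and -0.54 with Cxcl10, and with it removed the list medians were 0.38 and 0.52. The 3 genes were singled out after their values were seen, and neither the differences nor the part of the slope in them was tested.

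With the gene length slope removed, the 5 genes most correlated with Cxcl10 were Isg15 (0.95), Ccl5 (0.94), Ifitm3 (0.93), Tnfsf10 (0.93) and Shisa5 (0.92), of which 3 were also among the first 5 without it. For Cxcl9 they were AW112010, Serpina3g and Lcp2 (0.89 each), and Uba7 and Pou2f2 (0.88 each), none of them among its first 5 without it. For Cxcl11 they were Rnf213 (0.88), Oas1g (0.87), Ifit1 (0.86), Pml (0.86) and Nub1 (0.85), sharing 2. For Cxcr3 they included Smyd3 (0.82), Dusp6 (0.77), Gamt (0.74) and Npnt (0.73).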
